A study of Rattus norvegicus with 2 samples.

Results

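Of the 30367 rat probes on each array, 52 probes for 45 genes carried a name starting with Wnt, Fzd, Sfrp, Dkk, Axin, Rspo, Dvl or Lgr followed by a digit, and these 52 probes are the Wnt ligands, receptors and modulators described here. They were chosen by name alone. Total RNA from tissue that the sample titles give as the hypothalamic paraventricular nucleus was hybridised to 1-colour expression arrays. The series is on hypertension programmed before birth. The dexamethasone group was male Sprague Dawley offspring, 12 weeks old, of mothers given 200 µg/kg dexamethasone, a synthetic glucocorticoid, in late gestation. The control group was male Sprague Dawley offspring of the same age whose mothers were given vehicle. Each group had 1 array, so every difference below is between a pair of arrays, with no replicate check and no test of the treatment.

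Wnt proteins are secreted, lipid-modified ligands that bind Frizzled receptors and the co-receptors Lrp5 and Lrp6. Binding recruits Dishevelled (Dvl), holds back the Axin scaffold that marks beta-catenin for degradation, and lets beta-catenin act with TCF/LEF factors on target genes, while some Wnts act through planar polarity branches instead. R-spondins (Rspo) bind Lgr receptors and keep Frizzled receptors at the cell surface, whereas secreted Frizzled-related proteins (Sfrp) and Dickkopf proteins (Dkk) act outside the cell, many of them as inhibitors. In the adult brain the pathway is known for roles in synapses, in blood vessels and their barrier, and in adult neurogenesis.

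Of the 45 genes, 39 were well above background on both arrays by the scanner software's own call, 2 (Dkk4 and Wnt8a) on the dexamethasone array alone, and 4 (Dkk1, Dkk2, Fzd5 and Wnt8b) on neither. Among the 39 measured genes, 6 were at least 2-fold higher on the dexamethasone array (Rspo2, Wnt10a, Dkk3, Sfrp1, Rspo3 and Wnt6), 2 were at least 2-fold lower (Wnt3a and Rspo4), and 31 lay within 2-fold. The shares at least 2-fold higher and lower were thus 15.4% and 5.13% of the 39. Over all 14179 measured genes with a RefSeq name, 3.37% passed 2-fold upward and 2.38% downward on the dexamethasone array. The median log2 difference, dexamethasone minus control, was 0.04 over the 39 genes and 0.01 over all measured genes. With normexp background correction 4 of the 6 higher genes (Rspo2, Wnt10a, Dkk3 and Rspo3) and neither of the 2 lower ones passed 2-fold. Under that setting 284 of all 14179 measured genes passed 2-fold upward and 130 downward (0.917%).

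The share of genes past 2-fold depended on signal, so the counts were also read within 3 equal groups of all measured genes by mean signal. The dim group held 20 of the 39 genes, with 3 higher and 2 lower, against 4.63% and 4.44% of all genes there. The middle group held 13, with 2 higher and 0 lower (background 3.47% and 1.97%). The bright group held 6, with 1 higher (Dkk3) and 0 lower (background 2.01% and 0.74%). Sfrp1, Wnt6, Wnt3a and Rspo4, the 4 genes that lost the 2-fold call with normexp, were all in the dim group.

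The probes are 60 bases long, and their first 30 bases are shown for the genes whose values the results turn on: both probes of Rspo2 and of Wnt9b, which show how far probes of a gene agreed, and single probes of Wnt10a, Wnt6, Dkk3 and Wnt3a. Positions are those of the rn4 assembly in the deposited files.
Rspo2, probe at chr7:78776221-78776280, minus strand: aacagcacagcgtcttccttgctacagaca
Rspo2, probe at chr7:78826526-78826585, minus strand: ggggtctgcttttcactaacaaggatggtt
Wnt9b, probe at chr10:92880271-92880330, minus strand: tattctggcaccctccgtttgtctggtaga
Wnt9b, probe at chr10:92883825-92883884, minus strand: aaagtgtccagtgctaccaatgaggccttg
Wnt10a, probe at chr9:74137306-74137365, plus strand: aagaaaacgcagaaatgggcgtcattaggc
Wnt6, probe at chr9:74117575-74117634, plus strand: tcctcagaattactggggtggatgggtgag
Dkk3, probe at chr1:169924663-169924722, minus strand: cacatagcaccgagtccctcttaaaagcct
Wnt3a, probe at chr10:45553899-45553958, minus strand: atacttcaaggtgcccacagagcgcgacct
Over all 52 probes, the longest run of bases shared by probes of different genes of the set was 11 of 60. A match of the probes to other transcripts was not analysed here, and the exon or UTR a probe lies in was not looked up, since no rn4 annotation was used here.

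Among the Wnt ligands, 18 genes had a probe and 16 were measured on both arrays, with 9 higher and 7 lower and a median log2 difference of 0.05. Wnt10a, a ligand that signals through beta-catenin and is best known from teeth, hair and skin, had a signal of 470 on the dexamethasone array and 124 on the control array. It was 3.60-fold higher (log2 difference 1.85, with a software error of 0.20; 1.42 with normexp). Wnt6, a ligand known from epithelial and kidney development, had 42.9 on the dexamethasone array and 17.8 on the control array (log2 difference 1.19, software error 0.24), which narrowed to 0.40 with normexp. The software error is the scanner program's own estimate for a spot, carried to the difference, and it holds no spread between animals.

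Wnt3a, a ligand that activates the beta-catenin branch, went the other way. It had 8.01 on the dexamethasone array and 25.2 on the control array, a log2 difference of -1.73 with a software error of 0.35. With normexp the difference was -0.41, and the dexamethasone signal lay close to 7.20, the lowest signal that the software called well above background on that array. Wnt3, also a beta-catenin ligand, had 481 on the dexamethasone array and 786 on the control array (-0.78). Wnt9b, an inducer of kidney tubules, had 768 on the dexamethasone array and 1153 on the control array (-0.66). Its other probe gave -0.60 at dim signals, 12.2 on the dexamethasone array and 17.4 on the control array (software error 0.29). Wnt11, which acts mostly outside the beta-catenin branch, was lower on both of its probes (-0.56 and -0.58), and the gene's value was -0.34 with normexp.

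The remaining measured ligands lay within 2-fold. Wnt7b (0.52, but 0.11 with normexp) and Wnt7a (0.31, and 0.32 with normexp) are the ligands that brain endothelial cells sense through Gpr124 and Reck. Wnt16 differed by 0.47 (0.42 with normexp). Wnt5a, the prototype ligand of the planar polarity branch, differed by 0.46, but by 0.11 with normexp. Wnt9a (0.03), Wnt1 (0.07), Wnt2b (0.07), Wnt5b (-0.0015), Wnt10b (-0.03) and Wnt4 (-0.09) were all within 0.1 of 0. Wnt8a was well above background on the dexamethasone array alone, at a signal of 10.2 against 5.26 on the control array. After scaling it was 1.65-fold above the lowest signal called well above background on the control array (5.86). Wnt8b had a signal of 3.16 on the dexamethasone array and 1.47 on the control array and was not well above background on either.

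Several Wnt genes sit side by side in the genome, and 4 pairs of the set were neighbours among protein-coding genes in the RefSeq gene order. Wnt6 and Wnt10a, on chromosome 9 with probes 19731 bases apart, were both more than 2-fold higher (1.19 and 1.85), though Wnt6 fell within 2-fold with normexp. Wnt9b and Wnt3, on chromosome 10 with probes 83989 bases apart, were both lower (-0.66 and -0.78). The pair Wnt3a and Wnt9a, on chromosome 10 and 85386 bases apart, did not move alike (-1.73 and 0.03), and neither gene of the pair Wnt10b and Wnt1 on chromosome 7, 20596 bases apart, differed by more than 0.1 (-0.03 and 0.07). The distances are those of the rn4 probe positions, and the pairs were looked up after the values had been seen.

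**Figure D1:**
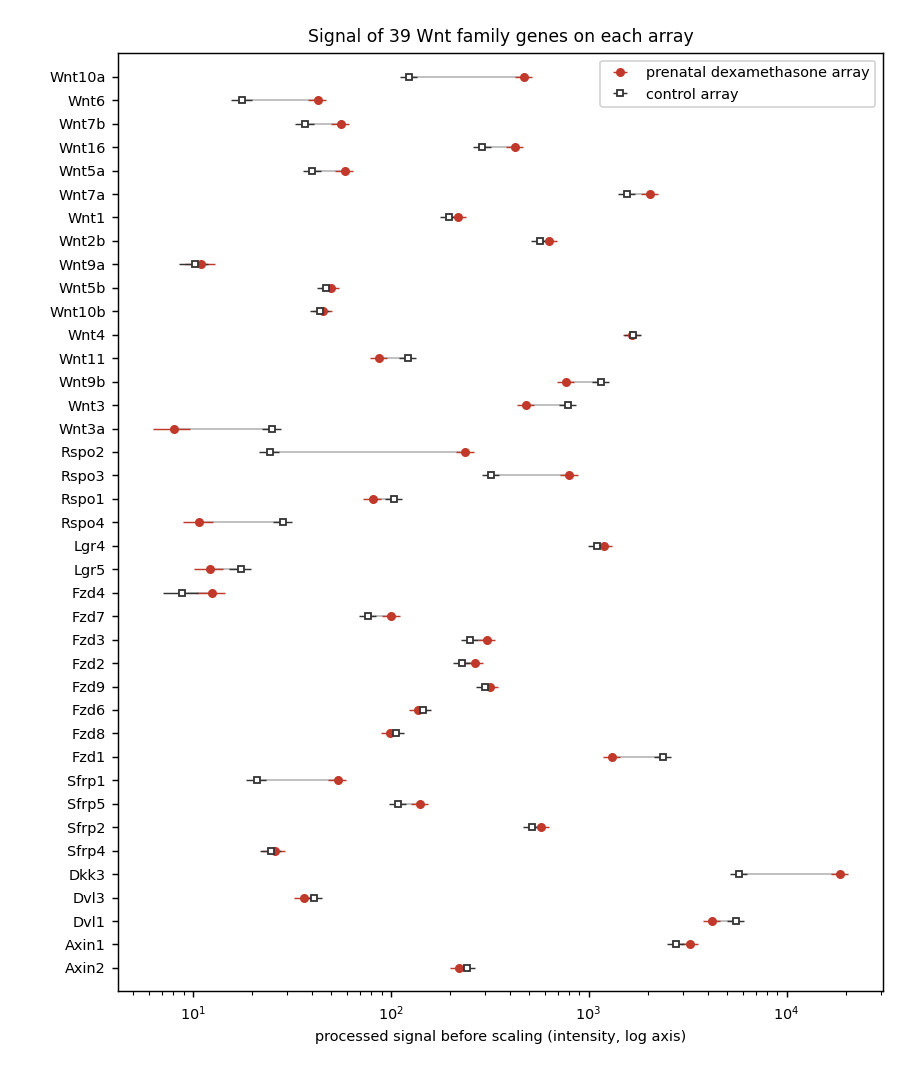
Processed signal before scaling (intensity, log axis) of the 39 genes measured on both arrays, on the dexamethasone array (filled red circles) and the control array (open squares), 1 array each; bars are the software error of a spot, and a grey line joins the arrays. Genes are grouped by family. Rspo2 has the longest line, with 239 on the dexamethasone array and 24.6 on the control array, and most other lines are short.

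The R-spondins were the family with the widest range of differences, from -1.48 to 3.21 over 4 measured genes. Rspo2, known from limb and lung development, had a signal of 239 on the dexamethasone array and 24.6 on the control array, a 9.22-fold excess (log2 difference 3.21, software error 0.22), and remained 1.84 higher with normexp. Its other probe, 50305 bases away, had 10.8 on the dexamethasone array and 6.63 on the control array. There the signal was well above background on the dexamethasone array alone, and the fold against the control signal was 1.55 (log2 difference 0.63, software error 0.45). Both probes thus had the higher signal on the dexamethasone array, with very unequal sizes, and the dim probe was not well above background on the control array.

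Rspo3, an R-spondin known from vascular development, had 799 on the dexamethasone array and 323 on the control array (2.35-fold, log2 difference 1.23), and passed 2-fold with normexp too. Rspo4, known from nail formation, had 10.8 on the dexamethasone array and 28.6 on the control array (-1.48, software error 0.29), and -0.44 with normexp. Rspo1, known from ovary development, differed by -0.44. Of the R-spondin receptors, Lgr4 had nearly equal scaled values (0.04). Lgr5, a stem cell marker of the gut, had 12.3 on the dexamethasone array and 17.5 on the control array (-0.59), with -0.72 on its other probe. With normexp the Lgr5 difference was -0.11.

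No Frizzled receptor passed 2-fold among the 8 measured of 9, where 13363 of all 14179 measured genes lay within 2-fold. The median difference of the 8 was 0.07. Fzd1 lay nearest to the threshold, with 1308 on the dexamethasone array and 2382 on the control array (-0.94, software error 0.20; -0.92 with normexp). The next sizes were those of Fzd4, the Norrin receptor of retinal and brain vessels, at 0.42 (-0.06 with normexp, since its signals were 12.6 on the dexamethasone array and 8.88 on the control array), and of Fzd7 at 0.32. Fzd3, a receptor of axon guidance, differed by 0.22, Fzd2 by 0.14, Fzd9 by 0.0033 and Fzd8 by -0.17. Fzd5 was not well above background on either array, with 7.17 on the dexamethasone array and 6.64 on the control array.

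Fzd6, a planar polarity receptor, and Dvl1, a Dishevelled protein, were each spotted 10 times on an array, which gives the spread of the measurement within an array. Dvl1 averaged 4202 ± 122 on the dexamethasone array and 5537 ± 151 on the control array (SD over 10 spots). Before scaling, the highest spot on the dexamethasone array was 4497 and the lowest on the control array 5368. How often the spots of other repeated probes separate in this way was not counted. After scaling, the log2 difference of Dvl1 was -0.47, with a spot SD of 0.041 and a range of -0.56 to -0.41. Fzd6 averaged 138 ± 8.67 on the dexamethasone array and 146 ± 7.87 on the control array (SD over 10 spots), with overlapping spots and a difference of -0.15 (spot SD 0.054). Its other probe gave -0.20. Repeated spots measure the same RNA and say nothing of the spread between animals.

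**Figure D2:**
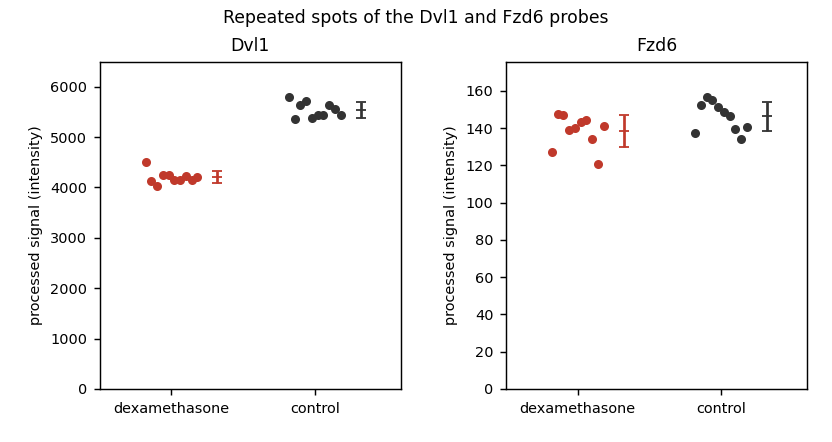
Processed signal (intensity, axis from 0) of the 10 spots of the Dvl1 probe and the 10 spots of the Fzd6 probe on the dexamethasone array (left, red) and the control array (right, black); the bar beside each column is the mean and SD over spots. In these signals before scaling, the Dvl1 spots of the dexamethasone array all lie below those of the control array, and the Fzd6 spots overlap.

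Dvl3 differed by -0.24, so both measured Dishevelled genes were lower on the dexamethasone array, as were 6903 of all 14179 measured genes. Axin1, the scaffold of the destruction complex, differed by 0.16. Axin2, its inducible relative and a widely used readout of beta-catenin signalling, had 223 on the dexamethasone array and 243 on the control array (-0.20, software error 0.20).

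Among the Dickkopf genes, Dkk3, a divergent member that is abundant in forebrain neurons, had a signal of 18572 on the dexamethasone array and 5736 on the control array. It was 3.07-fold higher (log2 difference 1.62, software error 0.20), and the value hardly moved with normexp (1.61). Dkk4 had 14.3 on the dexamethasone array and 7.96 on the control array, where it was not well above background. Its fold against that control signal was 1.70 (log2 difference 0.77, software error 0.43). Dkk1 and Dkk2, inhibitors that bind Lrp5 and Lrp6, reached the background call on neither array, with signals of at most 5.20 on the dexamethasone array and 1.68 on the control array.

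All 4 Sfrp-named genes on the array were measured, with a median difference of 0.18; Frzb, a secreted Frizzled-related gene with another name, is given with the other pathway genes. Sfrp1 had 54.1 on the dexamethasone array and 21.1 on the control array (2.43-fold, log2 difference 1.28, software error 0.23), and 0.50 with normexp. Sfrp5 differed by 0.29, with 0.22 on its other probe, Sfrp2 by 0.07 and Sfrp4 by -0.02.

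**Figure D3:**
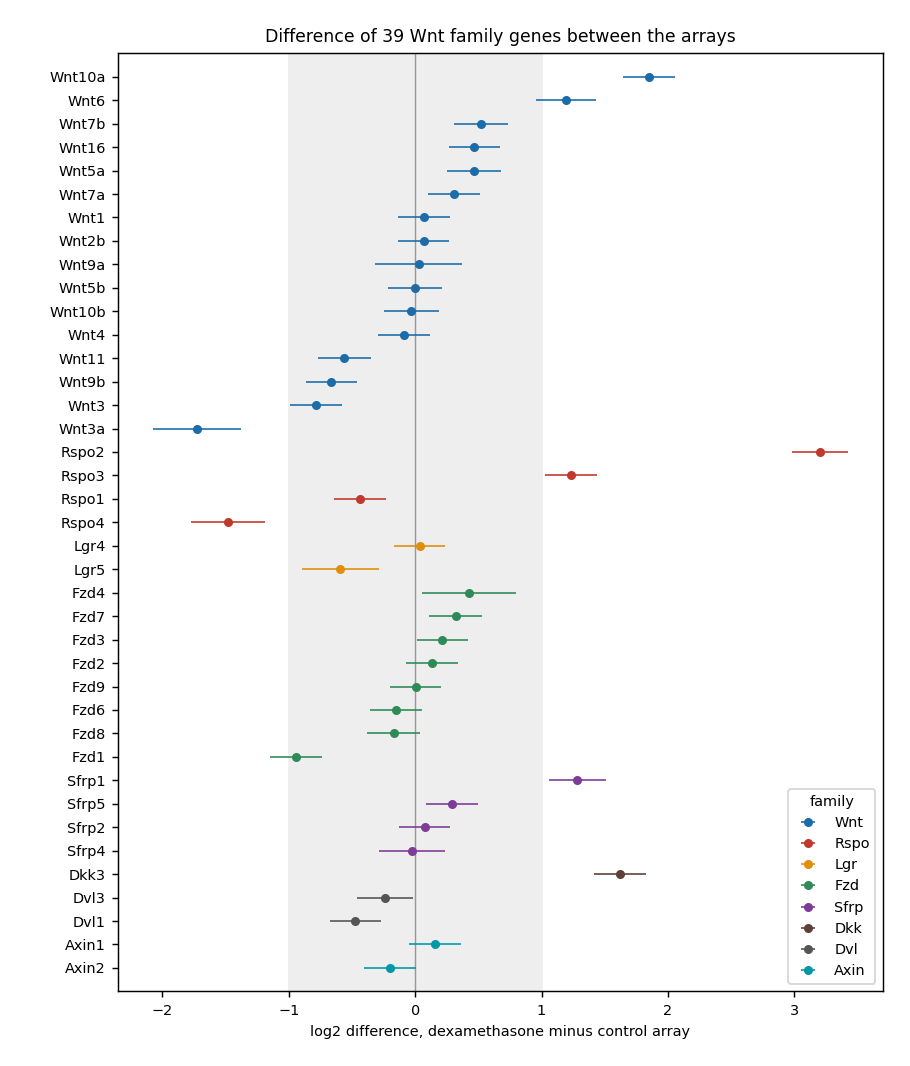
Log2 difference, dexamethasone minus control array, of the 39 measured genes grouped by family (colours); bars are the software error of the difference from a pair of spots, and the grey band marks differences within 2-fold. The 6 higher and 2 lower genes lie outside the band, and the Fzd, Lgr, Dvl and Axin genes lie within it.

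The handling of background set which dim genes passed 2-fold. Dkk3, Rspo2, Rspo3 and Wnt10a passed in every setting that measured them. No setting used the dim Rspo2 probe, so the settings do not bear on the unequal sizes of its probes. Sfrp1, Wnt6, Wnt3a and Rspo4 passed with each scaling of the processed signal and in the deposited value table, but not with normexp or without background correction. The direction of these 8 genes held in all settings that measured them.

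**Figure D4:**
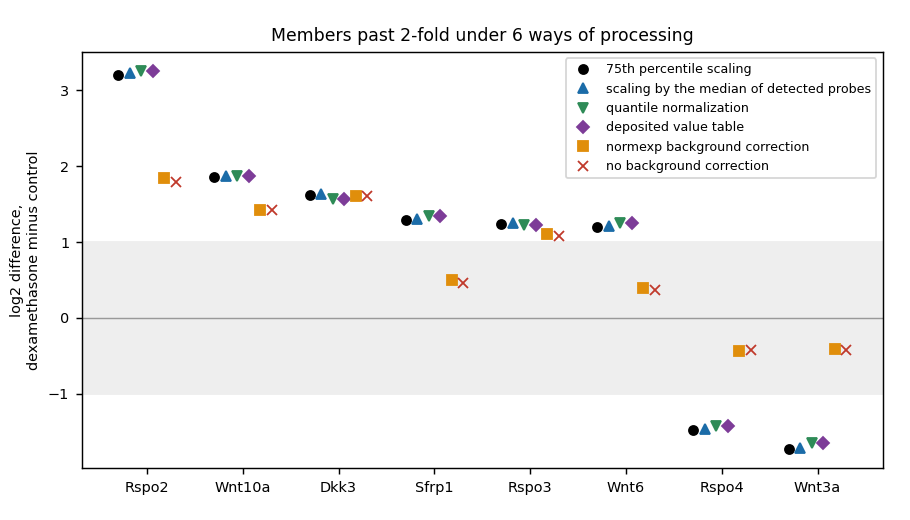
Log2 difference, dexamethasone minus control array, of the 8 genes past 2-fold under 6 ways of processing (symbols); the grey band marks differences within 2-fold. Normexp (orange squares) and no background correction (red crosses) bring Sfrp1, Wnt6, Rspo4 and Wnt3a into the band and leave Rspo2, Wnt10a, Dkk3 and Rspo3 above it.

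Promoter sequence, from 250 bases before to 50 after the start of each gene, was matched by symbol in RefSeq's GRCr8 table for 26 of the 39 measured genes. The TCF/LEF motif CTTTGAT, searched on both strands, was in 1 of them, Axin2, against 3.62% of 27457 rat promoters. It is shown here in capitals because Axin2 is the pathway's common readout, at -132 to -126 from the start site.
Axin2 promoter, chr10:94398642-94398671 of GRCr8, plus strand: ttactttcttgCTTTGATgttgggtagatc
The palindromic glucocorticoid receptor motif was in 0 of the 26 and in 0.422% of all. With shares this low over all promoters, 26 promoters are too few to set the Wnt genes apart for either motif. These are matches of letters, and both motifs were chosen after the expression values had been seen.

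Of the other genes of the pathway, 64 were measured, with 4 at least 2-fold higher, 0 at least 2-fold lower and a median of 0.09, against 3.37% higher and 2.38% lower at that fold and a median of 0.01 over all measured genes. Frzb, a secreted Frizzled-related protein named outside the Sfrp series, had 1761 on the dexamethasone array and 450 on the control array (3.72-fold, log2 difference 1.89; 1.73 with normexp). Tle1, a co-repressor that binds TCF/LEF factors, had 1004 on the dexamethasone array and 415 on the control array (1.20), while Tle2, of the same co-repressor family, had 260 on the dexamethasone array and 488 on the control array (-0.99). Of the common target genes, 8 of 10 were higher by any amount, with a median of 0.50, where 7276 of all 14179 measured genes were higher. The 2 lower ones were Lef1 (-0.74) and Tcf7 (-0.44), and Axin2 was not in this list. The dim targets Sp5, Tnfrsf19 and Ccn4 differed by 0.42, 0.58 and 0.66, but by 0.15, 0.27 and 0.23 with normexp. The higher ones include Cd44, an adhesion receptor, with 375 on the dexamethasone array and 144 on the control array (1.31, but -0.03 on its other probe). Id2, an inhibitor of helix-loop-helix factors, had 5663 on the dexamethasone array and 2664 on the control array (1.01, and 0.96 with normexp).

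Below 2-fold, the nuclear effectors Tcf7l2 and Lef1 were lower. Tcf7l2 had 13286 on the dexamethasone array and 23665 on the control array (-0.91, with -1.06 on another probe). Lef1 had 2029 on the dexamethasone array and 3209 on the control array (-0.74, with -0.60 and -0.79 on its other probes). Ctnnb1, which encodes beta-catenin, differed by -0.03, and the co-receptors Lrp6 and Lrp5 by 0.01 and -0.35. Vangl1, a planar polarity membrane protein (-0.79), Ctnnbip1, an inhibitor of beta-catenin (-0.74), and Tnks2, a tankyrase that destabilises Axin (0.55, with 1.02 on its other probe), completed the brighter genes with a difference of 0.5 or more. List medians were -0.43 over 3 genes of Wnt secretion, 0.13 over 7 co-receptors, 0.17 over 7 further extracellular modulators, -0.25 over 2 genes of receptor turnover, 0.01 over 18 of the destruction complex, 0.01 over 12 nuclear factors and 0.11 over 7 planar polarity genes.

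Markers of other regions differed between the arrays alongside these genes. All 11 measured pallium markers were higher on the dexamethasone array, 10 of them at least 2-fold, with a summed signal of 52361 there and 3099 on the control array. Tbr1 was not measured. All 11 thalamus markers were lower, 3 at least 2-fold, with a summed signal of 88882 on the dexamethasone array and 157141 on the control array; that list shares Tcf7l2 and Lef1 with the nuclear effectors. All 10 markers of meninges and fibroblasts were higher, 3 at least 2-fold, with 36858 on the dexamethasone array and 20968 on the control array. The part of these markers in the values of the Wnt genes was not tested. In such bulk RNA, fewer cells of a type and less RNA per cell cannot be told apart.

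Of 7 measured markers of the labelled nucleus 3 were higher and 4 lower, 2 in each direction by at least 2-fold, with a median of -0.24. Sim1 was dim, with 12.0 on the dexamethasone array and 14.1 on the control array, and Otp was not measured. Avp had 970 on the dexamethasone array and 3464 on the control array, Oxt had 587 on the dexamethasone array and 1455 on the control array, and Crh had 636 on the dexamethasone array and 230 on the control array. Sst had 21300 on the dexamethasone array and 7602 on the control array, while Trh (-0.24) and Pou3f2 (0.24) differed less. Of 8 striatum markers 7 were higher, with a median of 0.68. The medians of the remaining marker lists were 0.42 for ependyma, 0.29 for choroid plexus, 0.25 for oligodendrocytes, 0.09 for astrocytes, 0.08 for microglia and -0.11 for endothelium.

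**Figure D5:**
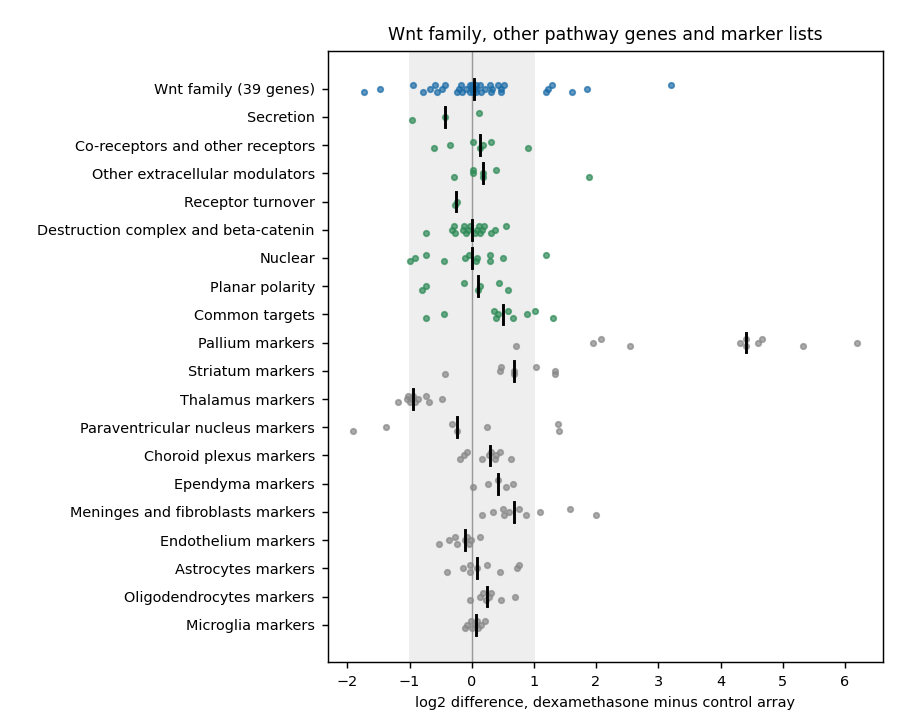
Log2 difference, dexamethasone minus control array, of each measured gene of the Wnt family (blue), of 8 lists of other pathway genes (green) and of 11 marker lists (grey); black bars are list medians and the grey band marks differences within 2-fold. The pallium markers have a median of 4.41 and the thalamus markers of -0.94, while the Wnt family is centred at 0.04.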

How the data were processed

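Total RNA of 1 dexamethasone and 1 control sample was measured on 1-colour Agilent arrays. The deposited files of the scanner give linear intensity for each spot. They were made with Feature Extraction 10.7.1.1, per the file headers, or 9.5.1.1, per the submitters' processing notes. The deposited files' processed intensity is background-subtracted. A table of intensity values, also deposited by the authors, has a median of 149.9 in both columns; its centring is not stated. The sources used here do not give the number of animals behind an array.

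Log2 processed intensity was averaged over the spots of a probe without an outlier mark, less the 75th percentile of the array's non-control probes (as signal, 1480 for dexamethasone and 1404 for control). No spot was saturated, and 78.2% of probes on the dexamethasone array and 79.5% on the control array were well above background, which for repeated spots means a share of at least 0.5 of them. Among probes that both arrays called well above background, a gene took the brightest. Where only 1 array detected a probe, the fold was set against the other array's lowest detected signal or the probe's own signal there, whichever was higher. This bound leaves out the software error, so the true fold can be smaller. The number of arrays limits the precision: there was no test and no p-value, and the errors are those of spots. Repeated spots of 1315 probes gave a median SD of the difference of 0.041. The scaling was tested on simulated data.

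Genes were named through RefSeq's GRCr8 table, which matched 18006 probes by accession, 2654 by symbol and 567 by synonym; 9140 kept the file's name. The background was restricted to matched names after the counts over every probe name had been seen. Over every name (20137 genes) 2.73% passed 2-fold upward and 3.22% downward, so 45.8% of the genes past 2-fold were higher there, against 58.6% over matched names; the counts of Wnt genes were the same.

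Every measured Wnt gene is named with its difference or bound. Signals on both arrays are given for genes past 2-fold, for repeated probes and for the largest difference of each family. Of the other pathway genes, those past 2-fold, those in the bright group with a difference of at least 0.5, Lrp5, Lrp6, Ctnnb1, Tcf7l2 and Lef1 are named. Tle2, Tcf7, Sp5, Tnfrsf19, Ccn4, further signals, the marker genes named, the neighbouring pairs, the motifs and the sequences shown were picked with their values known. The genes and lists were chosen with earlier results of these data known. Alternatives were normexp (offset 50, limma 3.58.1 in R 4.3.3), no background correction, other scalings, other filters, the median over probes, the deposited table and a 1.5-fold threshold.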

Additional observations from a re-analysis of the deposited data

How the results depend on the processing

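With normexp, without background correction and among genes of above-median signal alone, 0 Wnt genes were at least 2-fold lower. With the processed signal there were 2. Of all measured genes, 0.917%, 0.938% and 0.959% were that much lower in these settings, against 2.38% with the processed signal. At 1.5-fold 6 Wnt genes were higher and 6 lower, and the share of all genes at that fold was not counted. Among the 9 Wnt genes of above-median signal 1 was at least 2-fold higher (Dkk3), against 6 of all 39. Of all genes of above-median signal 2.51% were that much higher. The median difference was -0.0098 without background correction and -0.0903 among genes of above-median signal, against 0.04. The dim genes' differences shrink where background is left in or an offset is added, since both add to the signals of both arrays, and the filter leaves fewer genes. The split of all genes past 2-fold was 68.6% higher with normexp, 72.4% among genes of above-median signal and 45.8% over every probe name (chosen after seeing the data), against 58.6%. Of 282 values of single Wnt genes under alternatives, 261 moved by less than the software error and 21 by more. All 21 came with normexp or without background correction. The 261 include values that could not move, since a filter leaves a gene's value as it is and most genes had a single probe. The sign changed in 11 of the 282 values, for 6 genes (Fzd4, Fzd9, Sfrp4, Wnt10b, Wnt5b and Wnt9a), none of them past 2-fold.

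No paired analysis was possible because each group had 1 array. Both were on 1 slide, each at its own place, so place on the slide and treatment cannot be told apart. Signals near background, as for Wnt3a, Rspo4, Sfrp1, Wnt6 and Rspo2 on at least 1 array, limit the size of a difference. The same holds for Fzd4, Lgr5, Wnt9a and Sfrp4, which were dim on both arrays. For Rspo2 the difference of 3.21 was 1.84 with normexp and 1.80 without background correction.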
